A study of Mus musculus with 3 samples.

Results

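The 10 genes described here encode dual-specificity phosphatases (DUSPs) that act on MAP kinases, or MAP kinase phosphatases, and were taken by symbol from a table of 24054 mouse genes. All 10 (Dusp1, Dusp2, Dusp4, Dusp5, Dusp6, Dusp7, Dusp8, Dusp10, Dusp14 and Dusp16) averaged 1 CPM or more across libraries (CPM, a read count scaled by the authors to an adjusted library size) and so were among the 12692 genes compared. RNA came from primary cortical neurons, cells prepared from the brains of C57BL/6 mice at embryonic day 17 and grown for 7 days. One culture was kept for 7 hours at 0.2% oxygen with 5 nM T3, the active thyroid hormone (hypoxia with T3). Another was kept for 7 hours at 0.2% oxygen without added T3 (hypoxia), and a control was kept at 21% oxygen. Each of the 3 groups is 1 library, so the differences below carry no replicate check and have no p-value of their own. The number of embryos or dishes behind a library, and the hormone content of the control medium, are not given in the sources used here.

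MAP kinases (ERK, JNK and p38) relay signals from growth factors, synaptic activity and stress, and they are active only while a threonine and a tyrosine of their activation loop are both phosphorylated. The phosphatases of this family remove both phosphates. Several of their genes are transcribed in response to the very kinases that the proteins switch off, which makes them a negative feedback. In neurons Dusp1, Dusp4, Dusp5 and Dusp6 are known as genes induced by synaptic activity and ERK signalling, and their transcripts are short-lived.

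The deposited values correspond to 22533574 reads for hypoxia with T3, 17118865 for hypoxia and 18081904 for control, and the 10 genes took 0.0762%, 0.0787% and 0.0457% of the summed CPM of these libraries. A read stood for 0.0425 CPM in hypoxia with T3, 0.0552 in hypoxia and 0.0463 in control, so that a count of 0 would allow up to 0.128, 0.166 and 0.139 CPM in the libraries in that order. The culture had the transcripts of neurons: 8 markers of neurons summed to 5428 CPM in hypoxia with T3, 5495 in hypoxia and 5572 in control, and 8 of astrocytes to 542 CPM with T3, 528 in hypoxia and 507 in control. The sum for neurons hides opposite differences: Tubb3 was at 739 CPM with T3, 873 in hypoxia and 1771 in control, while the other 7 were higher in both hypoxic libraries, and the median log2 ratio over the 8 was 0.28 with T3 over control and 0.31 in hypoxia over control. The 8 markers of the oligodendrocyte lineage summed to 202 CPM in hypoxia with T3, 201 in hypoxia and 345 in control, lower in both hypoxic libraries. Mbp alone was higher in hypoxia, at 24.0 CPM against 21.8 in control. The part of the oligodendrocyte lineage in the results below was not tested. The 7 neural progenitor markers summed to 242 CPM with T3, 224 in hypoxia and 256 in control. Among them, Nes, Sox2, Pax6 and Eomes were higher in both hypoxic libraries, and Hes5, Mki67 and Top2a lower. Their median log2 ratio was 0.12 with T3 over control and 0.10 in hypoxia over control. Microglial markers were near 0, with 2.59 CPM over 8 genes in hypoxia with T3, 2.1 in hypoxia and 1.99 in control, and Tmem119 had no read in either hypoxic library. Endothelial markers were as low, with 1.70 CPM over 7 genes in hypoxia with T3, 2.15 in hypoxia and 2.09 in control, and Cldn5 had no read in either hypoxic library. In bulk RNA, fewer cells of a type and less RNA per cell cannot be told apart.

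Promoter sequence was available from RefSeq (build GRCm38.p6) for 9 of the 10 genes, as the 250 bases before 1 annotated start. The gene without a window is Dusp4, which was also at least 2-fold higher in hypoxia. Shown here are bases 250 to 51 before the start for the 3 genes with the highest ratios in hypoxia, Dusp1, Dusp5 and Dusp6, and for Dusp2, a gene of the same class as Dusp1 and Dusp5 that stayed below 2-fold. They are written along the strand of the gene, and capitals mark the matches to the searched motifs. The printed stretch of Dusp5 also holds an exon of the antisense gene AC137853.2 in GENCODE M21, and those of the other 3 hold no annotated exon. The windows of Dusp7, Dusp8, Dusp14 and Dusp16, which are searched but not printed, precede a start inside the gene's RefSeq span, and for Dusp8 and Dusp16 the bases after that start were not found as 1 unbroken run in a GENCODE transcript of the gene.
Dusp1 (chr17:26508523-26508722, minus strand): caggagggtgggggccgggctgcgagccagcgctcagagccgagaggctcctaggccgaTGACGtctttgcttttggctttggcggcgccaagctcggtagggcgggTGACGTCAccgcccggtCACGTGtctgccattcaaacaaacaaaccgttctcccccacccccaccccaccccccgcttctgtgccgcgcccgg
Dusp5 (chr19:53528895-53529094, plus strand): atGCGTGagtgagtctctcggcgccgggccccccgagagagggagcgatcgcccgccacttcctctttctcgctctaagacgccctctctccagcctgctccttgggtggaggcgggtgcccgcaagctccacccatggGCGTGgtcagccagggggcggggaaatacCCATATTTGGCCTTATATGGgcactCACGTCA
Dusp6 (chr10:99262981-99263180, plus strand): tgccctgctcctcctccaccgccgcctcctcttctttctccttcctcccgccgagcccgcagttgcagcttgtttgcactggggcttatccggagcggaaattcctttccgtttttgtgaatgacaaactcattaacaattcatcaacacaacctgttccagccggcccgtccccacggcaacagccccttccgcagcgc
Dusp2 (chr2:127335909-127336108, plus strand): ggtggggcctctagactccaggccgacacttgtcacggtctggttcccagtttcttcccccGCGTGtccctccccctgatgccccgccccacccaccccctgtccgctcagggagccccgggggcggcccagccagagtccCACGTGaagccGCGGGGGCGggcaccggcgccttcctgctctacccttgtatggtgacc

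Matches were counted on both strands of the 250 bases and set beside the share of all 32851 promoters in that table that hold the motif. Dusp1 held the full cyclic AMP response element (CRE) TGACGTCA at bases 143 to 136 before the start, a motif found in 1.55% of promoters, and a further short CRE word TGACG at bases 191 to 187. Dusp8 held 2 full CREs, and Dusp5 and Dusp16 the short word alone. That word, which each full CRE also contains, occurred in 17.8% of promoters. Dusp5 alone among the 9 held a CArG box, the motif of serum response factor, and it held 2 of them directly next to each other at bases 82 to 73 and 72 to 63. A CArG box occurred in 1.47% of promoters.

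The core word of hypoxia-inducible factor is ACGTG or GCGTG, found in 38.6% of all promoters. It was present in 6 of the 9 windows, those of Dusp1, Dusp2, Dusp5, Dusp7, Dusp8 and Dusp14. In Dusp1 and Dusp2 its matches include CACGTG, which reads the same on both strands and so counts on each. In Dusp5 one match overlaps the short CRE word. The Egr motif GCGNGGGCG occurred in Dusp2 and Dusp16 and in 4.70% of promoters. AGGTCA, the core word of thyroid hormone receptors, occurred in Dusp8 and Dusp16 and in 14.0%. The AP-1 motif TGANTCA and the TATA word TATAAA were in none of the 9 windows, against 6.75% and 12.4% of all promoters. Dusp6, whose ratio in hypoxia is among the 3 highest, held no match to any of these, and neither did Dusp10. A match describes the letters of the window and not a bound site. G and C made up 56.4% (Dusp6) to 77.2% (Dusp7) of the bases of a window, and the shares over all promoters were not matched for this.

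**Figure D1:**
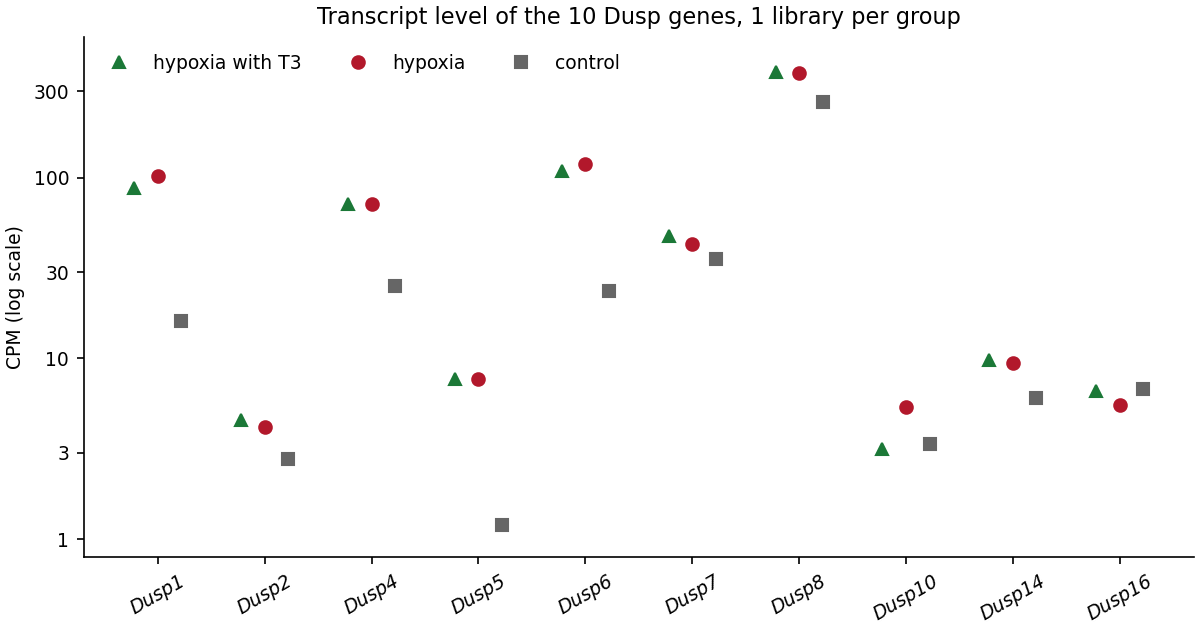
CPM on a log axis for each of the 10 genes, with hypoxia with T3 as triangles, hypoxia as circles and control as squares, 1 library each. The hypoxic libraries lie together and well above control for Dusp1, Dusp4, Dusp5 and Dusp6, while Dusp8 lies at 383 CPM with T3, 377 in hypoxia and 263 in control.

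Levels of different genes were compared as CPM per kilobase of the longest RefSeq-linked transcript, with exact 95% Poisson intervals on the reads. These intervals, like those of the folds below, cover counting error only and not the spread between cultures, since each group is 1 library. Amplified reads were not traced back to single molecules, so the counting error itself may be larger. Dusp8 was the highest of the 10 in every library, at 79.7 CPM per kb in hypoxia with T3, 78.5 in hypoxia and 54.8 in control. In hypoxia it was followed by Dusp1 at 51.1 CPM per kb, Dusp6 at 42.4, Dusp4 at 26.2, Dusp7 at 13.4 and Dusp14 at 6.49. Dusp5 at 3.10, Dusp2 at 2.60, Dusp10 at 1.92 and Dusp16 at 1.08 CPM per kb came last. Of the neighbours in this order, Dusp5 and Dusp2, and Dusp2 and Dusp10, were not apart beyond their intervals.

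The order in control was another one. After Dusp8 came Dusp7 at 11 CPM per kb, then Dusp4 at 9.15, Dusp6 at 8.45 and Dusp1 at 8.10, where the intervals of Dusp4 and Dusp6, and of Dusp6 and Dusp1, overlapped. Dusp14 at 4.16, Dusp2 at 1.72, Dusp16 at 1.33 and Dusp10 at 1.21 CPM per kb followed, with Dusp16 not apart from either neighbour, and Dusp5 was lowest at 0.487 (0.318 to 0.714). Dusp1, Dusp4 and Dusp6 thus stood below Dusp7 in control and above it in both hypoxic libraries. In hypoxia with T3 the order was that of hypoxia, except that Dusp16 at 1.30 and Dusp10 at 1.13 CPM per kb stood in the reverse order, with overlapping intervals there. In hypoxia the intervals of Dusp10 (1.56 to 2.34) and Dusp16 (0.880 to 1.32) were apart.

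The nuclear, inducible phosphatases held 3 of the 4 genes that were at least 2-fold higher in hypoxia. Dusp1 (MKP-1; chromosome 17, 26505591 to 26508472, minus strand), which acts on p38, JNK and ERK, was at 87.0 CPM in hypoxia with T3, 102 CPM in hypoxia and 16.1 CPM in control, from 2047, 1841 and 348 reads. It was 6.30-fold higher in hypoxia than in control (95% interval 5.62 to 7.09) and 5.40-fold higher in hypoxia with T3 (4.82 to 6.06). Its log2 ratio of 2.58 for hypoxia over control, taken as all log2 ratios here after adding 1 CPM, ranked 29 among the 12692 genes. Both hypoxic libraries were far above control, and the one with T3 was the lower of the pair.

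Dusp5 (chromosome 19, 53529145 to 53541809, plus strand), a phosphatase of ERK alone within this family, was the lowest of the 10 per kilobase in control. It was at 7.70 CPM in hypoxia with T3, 7.68 CPM in hypoxia and 1.2 CPM in control, from 181, 139 and 26 reads. Its folds were 6.37 in hypoxia (4.17 to 10.1) and 6.39 in hypoxia with T3 (4.22 to 10.04), with wide intervals because of the few control reads. The antisense gene AC137853.2 overlaps it in exons in GENCODE M21. The library kit is strand-specific, but whether the counting used it is not given in the sources used here.

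Dusp4 (MKP-2; chromosome 8, 34807610 to 34819894, plus strand), which acts on ERK, JNK and p38, measured 71.6 CPM in hypoxia with T3, 71.8 CPM in hypoxia and 25.1 CPM in control. This was 2.86-fold higher in hypoxia (2.59 to 3.17) and 2.85-fold higher in hypoxia with T3 (2.59 to 3.15). Dusp2 (PAC-1; chromosome 2, 127336159 to 127338377, plus strand), best known from lymphocytes, was at 4.59, 4.2 and 2.78 CPM in hypoxia with T3, hypoxia and control. Its folds over control, 1.65 with T3 (1.19 to 2.3) and 1.51 without (1.06 to 2.15), stayed below 2 in both hypoxic libraries.

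The 2 cytoplasmic, ERK-selective phosphatases differed from each other. Dusp6 (MKP-3; chromosome 10, 99263231 to 99267489, plus strand), the classical feedback gene of ERK, was at 109 CPM in hypoxia with T3, 119 CPM in hypoxia and 23.6 CPM in control, from 2559, 2148 and 510 reads. It was 5.02-fold higher in hypoxia (4.56 to 5.54) and 4.60-fold higher in hypoxia with T3 (4.18 to 5.07). As for Dusp1, the library with T3 was the lower of the hypoxic pair. Dusp7 (chromosome 9, 106368560 to 106375724, plus strand), its cytoplasmic relative, measured 47.6 CPM in hypoxia with T3, 43.0 in hypoxia and 35.2 in control. Its folds over control were 1.35 with T3 (1.23 to 1.48) and 1.22 without (1.10 to 1.35). The intervals of Dusp6 and Dusp7 did not overlap in either comparison with control.

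None of the 3 phosphatases that prefer JNK and p38 was 2-fold apart in any comparison. Dusp8 (chromosome 7, 142079487 to 142095907, minus strand), a phosphatase strongly expressed in brain, was at 383, 377 and 263 CPM in hypoxia with T3, hypoxia and control. Its 9007 reads with T3, 6831 in hypoxia and 5677 in control gave narrow intervals over control: 1.46-fold higher with T3 (1.41 to 1.51) and 1.43-fold without (1.38 to 1.49). Dusp10 (MKP-5; chromosome 1, 184034381 to 184075636, plus strand) was the one gene whose ratio to control was above 1 in hypoxia alone and below 1 with T3. It measured 3.15 CPM in hypoxia with T3, 5.36 CPM in hypoxia and 3.38 CPM in control. Its fold over control was 0.930 with T3 (0.664 to 1.30), where the interval spans 1, and 1.58 without (1.16 to 2.18).

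Dusp16 (MKP-7; chromosome 6, 134715468 to 134807063, minus strand) was at 6.63, 5.52 and 6.81 CPM in hypoxia with T3, hypoxia and control. It was the one gene with a ratio below 1 in both hypoxic libraries, and its differences from control, with folds of 0.974 with T3 (0.772 to 1.23) and 0.811 without (0.622 to 1.05), were not detectable at this depth. Dusp14 (MKP-6; chromosome 11, 84048033 to 84069256, minus strand), an atypical, small phosphatase without the kinase-binding domain of the others, measured 9.82 CPM with T3, 9.39 in hypoxia and 6.02 in control. That was 1.63-fold higher than control in hypoxia with T3 (1.31 to 2.04) and 1.56-fold in hypoxia (1.23 to 1.97).

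**Figure D2:**
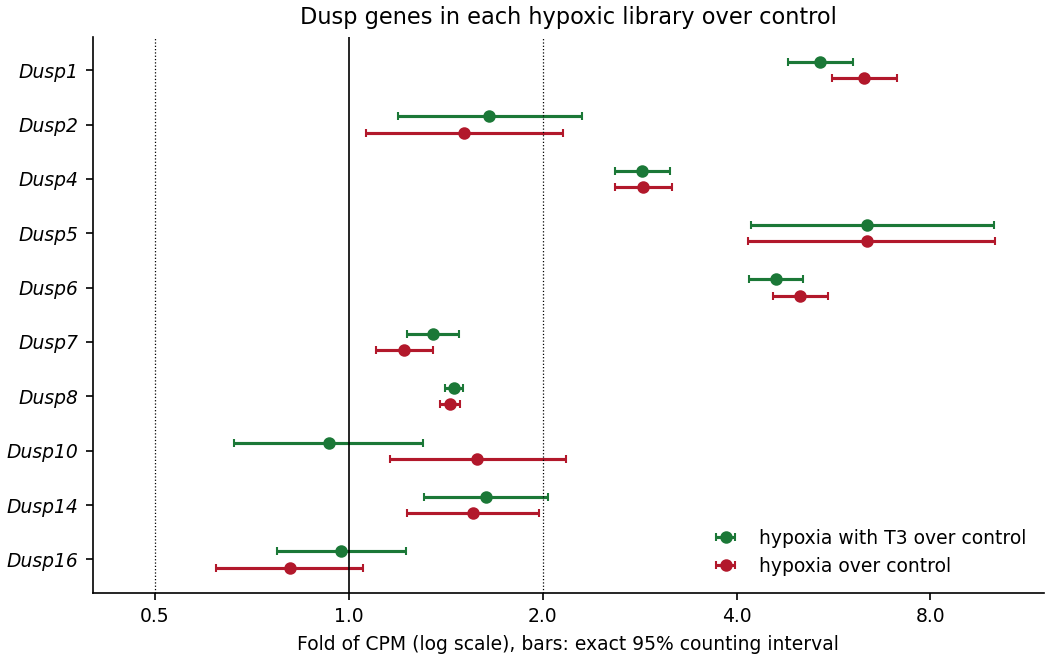
Folds of CPM over control on a log axis, hypoxia with T3 above hypoxia for each gene, with exact 95% counting intervals and dotted lines at 0.5 and 2. The intervals of Dusp1, Dusp4, Dusp5 and Dusp6 lie wholly above 2 in both libraries, while those of Dusp7 and Dusp8 lie between 1 and 2.

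In hypoxia, 4 of the 10 genes stood 2-fold or more above control and 0 below, where 1.99% of all genes compared were higher and 4.92% lower. The same 4 genes stood 2-fold or more above control in hypoxia with T3, and 0 below, where 2.06% of all genes were higher and 4.59% lower. Both comparisons use the same control library. The median log2 ratio of the 10 genes was 0.55 in hypoxia, beside 0.05 for all genes, and 0.59 in hypoxia with T3, beside 0.08. On that log2 scale, 6 of the 10 genes were within 1.5-fold of control in hypoxia, against 77.7% of all genes, and 5 in hypoxia with T3, against 78.2%. Of all genes, 252 were higher and 624 lower in hypoxia. With the libraries scaled to equal sums, these were 188 and 949, and the median of all genes was −0.10. For hypoxia with T3 the counts were 262 and 582, or 196 and 898 with equal sums, and the median of all genes was then again −0.10. The 4 genes stayed above 2-fold under that scaling, with log2 ratios from 1.31 for Dusp4 to 2.42 for Dusp1 in hypoxia, while Dusp7 came down to 0.11 and Dusp8 to 0.34.

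In these libraries the ratio went with the length of the gene on the chromosome, and 8 of the 10 Dusp genes span less than 30 kb. Dusp1, Dusp2, Dusp6 and Dusp7 span less than 10 kb, a class in which 5.31% of 3034 genes were 2-fold or more above control in hypoxia and 0.758% below. Dusp4, Dusp5, Dusp8 and Dusp14 span 10 to 30 kb, where 1.94% of 4014 genes were above and 1.49% below. Dusp10 and Dusp16, at 41.3 and 91.6 kb, are in the class of 30 to 100 kb, where 0.360% of 3608 genes were above and 5.16% below. The part of gene span in the ratios of the Dusp genes was not tested.

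The authors' deposited table for hypoxia against control holds all 10 genes and gave Dusp1 a fold of 6.04 with a false discovery rate of 0.0163, and Dusp5 a fold of 6.08 with 0.0377. In the same deposited table of the authors, Dusp6 had a fold of 4.81 with a rate of 0.0588 and Dusp4 one of 2.74 with 0.541. The other 6 Dusp genes had a rate of 0.999 in the authors' deposited table. Of the 13152 genes of the authors' deposited table, 85 had a rate below 0.05, and 2 of these were Dusp genes. The authors' deposited table for hypoxia with T3 against control had 104 genes below 0.05, again with 2 Dusp genes, Dusp1 at a fold of 5.13 and a rate of 0.0389 and Dusp5 at 6.05 and 0.0337. The test behind these rates is not given in the sources used here, and each compares 1 library with 1.

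Summed as CPM over each class, the balance between the transcripts of the classes differed between hypoxia and control. Only RNA is described here, not protein or phosphatase activity. A class fold is also not that of each gene. In hypoxia over control the cytoplasmic class joins Dusp6 at 5.02 with Dusp7 at 1.22, and the nuclear class includes Dusp2 at 1.51. CPM is not divided by transcript length, so Dusp8, at 4804 bases, weighs more per transcript than Dusp1, at 1990. The sums, shares and order of the classes are therefore those of CPM and not of transcript number. The 4 nuclear genes summed to 171 CPM in hypoxia with T3, 185 CPM in hypoxia and 45.2 CPM in control, 3.78-fold above control with T3 (3.53 to 4.06) and 4.10-fold without (3.82 to 4.41). The pair of cytoplasmic genes summed to 156 CPM with T3, 162 in hypoxia and 58.9 in control, 2.66-fold above control with T3 (2.49 to 2.84) and 2.75-fold without (2.57 to 2.93). The 3 genes with a preference for JNK and p38 summed to 393 CPM with T3, 388 in hypoxia and 273 in control, 1.44-fold above control with T3 (1.39 to 1.49) and 1.42-fold without (1.37 to 1.47).

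The nuclear genes therefore made up 23.4% of the CPM of the family in hypoxia with T3, 24.9% in hypoxia and 11.8% in control. The JNK- and p38-selective genes made up 53.8% with T3, 52.1% in hypoxia and 71.3% in control, nearly all of it Dusp8. All 10 genes together were at 730 CPM with T3, 745 in hypoxia and 383 in control, 1.90-fold above control with T3 (1.85 to 1.95) and 1.94-fold without (1.89 to 2.0). Without Dusp8, the sums were 347 CPM with T3, 367 in hypoxia and 120 in control, 2.88-fold above control with T3 (2.76 to 3.02) and 3.05-fold without (2.92 to 3.20). All these folds rest on the authors' scaling, and the intervals do not cover that choice. The CPM of all genes summed to 958205 with T3, 945496 in hypoxia and 837997 in control. With equal sums, each class and family fold over control would therefore be smaller.

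**Figure D3:**
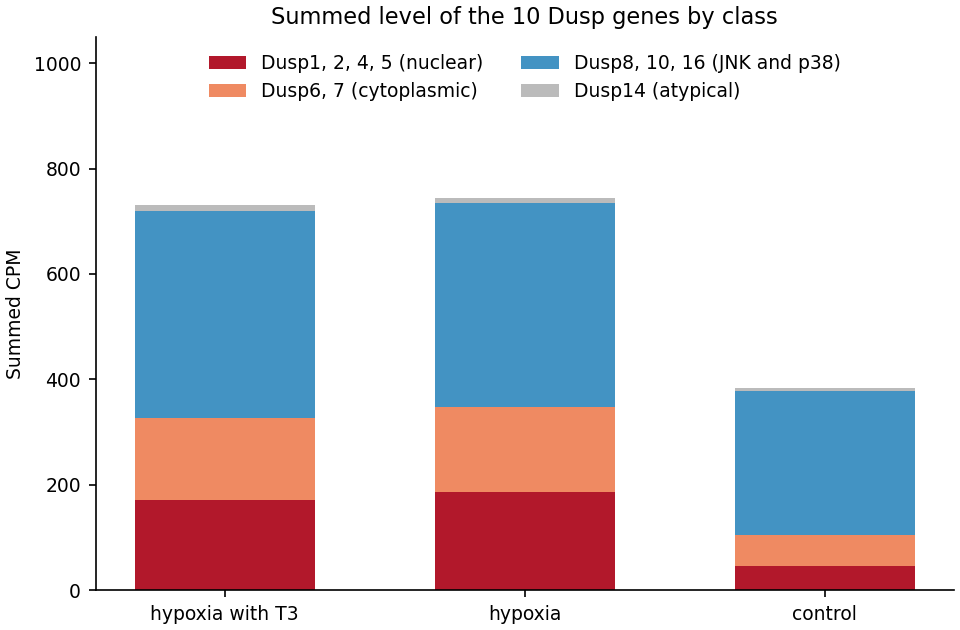
Summed CPM of the 10 genes by class in hypoxia with T3, hypoxia and control, 1 library each. The nuclear and cytoplasmic classes are larger in both hypoxic libraries than in control. The JNK and p38 class, mostly Dusp8, has the largest CPM in each, without division by transcript length.

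Between the hypoxic libraries, which differ in T3, 0 of the 10 genes were 2-fold apart. Of all genes compared, 0.126% had a ratio of 2 or more with T3 and 0.063% one as far below 1, and the median log2 ratio was 0.01 both for the 10 genes and for all genes. Dusp10 had the lowest ratio of the family: 3.15 CPM from 74 reads with T3 and 5.36 CPM from 97 reads without, a fold of 0.587 (0.428 to 0.803). Its log2 ratio of −0.62 ranked 12666 of 12692, and it was the one Dusp gene at least 1.5-fold lower, as were 0.276% of all genes. At least 1.5-fold higher were 0 Dusp genes and 0.717% of all genes.

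The differences of the strongly expressed genes were small. Dusp1 was at 87.0 CPM with T3 and 102 CPM without, a fold of 0.856 (0.803 to 0.912), and Dusp6 at 109 CPM with T3 and 119 without, a fold of 0.917 (0.866 to 0.972). Dusp7 was at 47.6 CPM with T3 and 43.0 without, a fold of 1.11 (1.01 to 1.22). Together with Dusp10, these 3 were the genes whose intervals lay on one side of 1. Dusp4 and Dusp5, which are known ERK-responsive genes like Dusp1, had folds of 0.997 (0.927 to 1.07) and 1.0 (0.799 to 1.26). Dusp8, with the most reads, had a fold of 1.02 (0.984 to 1.05). For Dusp2, Dusp14 and Dusp16, with folds of 1.09 (0.808 to 1.49), 1.05 (0.854 to 1.28) and 1.2 (0.928 to 1.56), a difference was not detectable at this depth.

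**Figure D4:**
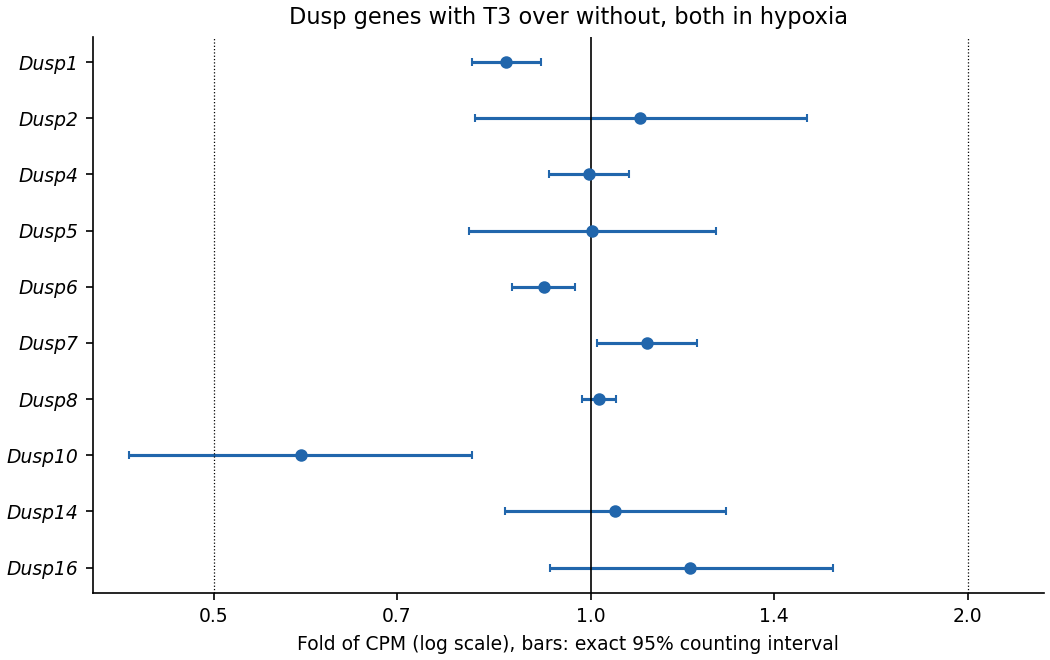
Folds of CPM in hypoxia with T3 over hypoxia on a log axis, with exact 95% counting intervals and dotted lines at 0.5 and 2. Dusp10, at 0.587, lies farthest from 1, and the other 9 genes lie between 0.856 and 1.2.

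The rest of the MAP kinase pathway was described by 7 gene lists, with calls made on log2 ratios after adding 1 CPM. Of all genes compared, 1.99% were called higher and 4.92% lower in hypoxia over control. In hypoxia with T3 over control these shares were 2.06% and 4.59%. On lists this short, a count near these shares does not set a list apart from all genes. Among 15 other dual-specificity phosphatases, most of which act on substrates other than MAP kinases, 11 were compared and 0 were 2-fold apart in hypoxia over control (median log2 ratio 0.04). The remaining typical MAP kinase phosphatase, Dusp9, is on that list and had 3, 3 and 0 reads in hypoxia with T3, hypoxia and control. Of 7 other phosphatases of MAP kinases, which are tyrosine or serine/threonine phosphatases, 0 were 2-fold apart (median 0.16). For both lists the count was also 0 in hypoxia with T3 over control. As plain CPM, Dusp22 was 2.01-fold lower than control in hypoxia (1.63 to 2.48) and 2.09-fold lower with T3 (1.72 to 2.55). With 1 CPM added it did not reach the 2-fold call.

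Of 12 MAP kinases compared, 2 were 2-fold or more below control in hypoxia and 0 above (median −0.07). These were Mapk4, the atypical kinase ERK4, at 20.6 CPM in hypoxia against 45.7 CPM in control, and Nlk, the Nemo-like kinase, at 34.8 CPM in hypoxia against 73.5 in control. With 5 CPM added before the log2 in place of 1, the count was 0. Of 25 MAP kinase kinases and their activators, 1 was below, Map3k1, which feeds into JNK and ERK, at 5.47 CPM in hypoxia against 22.4 CPM in control, 4.09-fold lower (3.29 to 5.13), and 0 were above (median −0.29). Map3k14, on the same list, was 2.25-fold lower in hypoxia as plain CPM (1.51 to 3.42), but not called with 1 CPM added. With libraries scaled to equal sums, 4 genes of that list were 2-fold lower, as was 1 of the other dual-specificity phosphatases. Of 20 kinases and transcription factors activated by MAP kinases, 1 was higher and 3 lower (median 0.00). The higher one was Srf, serum response factor, at 119 CPM in hypoxia against 47.4 CPM in control, 2.5-fold higher (2.32 to 2.70). The lower ones were Creb1, the factor that binds CREs, at 19.3 CPM in hypoxia against 60.7 in control, Rps6ka5, the kinase MSK1, at 9.06 in hypoxia against 20.7 in control, and Mef2a, a transcription factor of muscle and neurons, at 57.7 in hypoxia against 124 in control.

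Inhibitors that act on receptors or on the steps below them were split. Of 12 compared, 3 stood 2-fold or more above control in hypoxia and 2 below (median 0.08). With 5 CPM added before the log2, equal sums or recomputed TMM factors, 2 were above and 2 below. Errfi1, an inhibitor of EGF receptor kinases, was at 102 CPM in hypoxia against 20.8 CPM in control, 4.93-fold higher (4.45 to 5.48), and Spry4, a Sprouty inhibitor of ERK activation, at 89.6 in hypoxia against 22.5 in control, 3.98-fold higher (3.59 to 4.41). Lrig1, which promotes receptor turnover, was at 16.2 CPM in hypoxia against 43.7 in control, and Spred2, an inhibitor of RAF activation, at 27.8 in hypoxia against 67.2 in control. Of 12 transcripts known to follow ERK activity, 5 stood 2-fold or more above control and 0 below (median 0.65), among them Egr1, an early growth response factor, at 190 CPM in hypoxia against 20.4 CPM in control. Ier3, an early response gene, was at 5.63 CPM in hypoxia against 0.324 in control, and Epha2, an ephrin receptor, at 3.48 in hypoxia against 0.232 in control, with only 7 and 5 control reads. The count of 5 was 3 with 5 CPM added before the log2 or with a mean of at least 5 CPM required. With equal sums or recomputed TMM factors, 5 were above and 1 was below. The lowest of the list, Epha4, an ephrin receptor, was at 46.7 CPM in hypoxia against 93.5 in control, with a log2 ratio of −0.99, and at 87.1 CPM in hypoxia with T3. The list was not uniform in hypoxia, with 8 log2 ratios above 0 and 4 below. Those below were Epha4, Etv1 at −0.27, Etv5 at −0.39 and Ccnd1 at −0.40. Spry2 and Spry4 are on both of these lists.

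In hypoxia with T3 over control the same lists gave 0 higher and 2 lower MAP kinases, and 0 and 1 MAP kinase kinases and activators. They gave 1 and 1 activated kinases and factors, 4 and 2 inhibitors at or below receptors, and 5 and 0 ERK-following transcripts. With 5 CPM added these last counts were 2 and 1 for the inhibitors and 2 and 0 for the transcripts. With a mean of at least 5 CPM the transcripts gave 3 and 0. The inhibitors gave 3 and 2 with that mean, with equal sums or with recomputed TMM factors. In hypoxia with T3 over hypoxia 0 genes of the 7 lists were 2-fold apart, where 0.126% of all genes compared were higher and 0.063% lower.

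**Figure D5:**
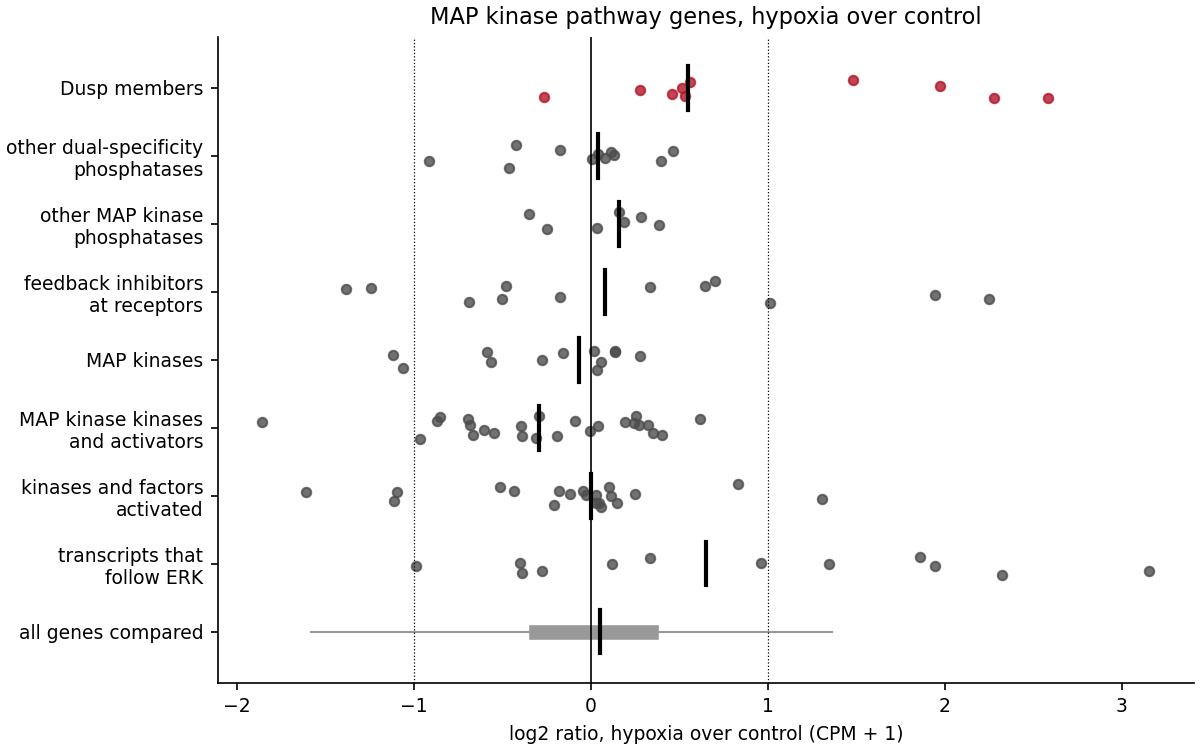
Log2 ratios of hypoxia over control for the 10 Dusp genes (top) and the genes compared on 7 pathway lists, 1 point per gene with thick ticks at the medians. The list labelled as feedback inhibitors at receptors also holds inhibitors of steps below receptors, such as Spred2. At the bottom, all genes compared are drawn as a tick at the median, a bar over the middle 50% and a line between percentiles 1 and 99, and 4 Dusp genes lie to the right of that line, whose end is at 1.36.

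Genes with the most similar pattern were sought for the 3 Dusp genes with the highest ratios, by Euclidean distance between log2(CPM + 1) values centred on their mean over the 3 libraries, among the 9966 genes averaging 5 CPM or more. Nearest to Dusp1 were Cebpb, a basic leucine zipper factor, Tnfrsf12a, a receptor of the TNF family, and Csrnp1, a nuclear protein, at distances of 0.113, 0.116 and 0.125. Cebpb was at 28.8 CPM in hypoxia with T3, 35.8 CPM in hypoxia and 4.5 CPM in control. Nearest to Dusp6 were Hspa1b, an inducible chaperone, Vgf, a secreted neuropeptide precursor, and Hexim1, an inhibitor of the elongation factor P-TEFb, at 0.0116, 0.0846 and 0.0911. Hspa1b measured 38.1 CPM with T3, 42.0 in hypoxia and 7.88 in control. Nearest to Dusp5 were Bambi, a TGF-beta pseudoreceptor, Rbm38, an RNA-binding protein, and Kdm3a, a histone demethylase, at 0.0227, 0.0279 and 0.0301. Bambi measured 10.6 CPM with T3, 10.8 in hypoxia and 1.95 in control. Each distance rests on 3 libraries alone and on values with 1 CPM added, which shrinks the ratios of genes with low CPM. A near gene can therefore differ in its plain fold of hypoxia over control. Tnfrsf12a was 12.1-fold higher (7.09 to 22.1), from 15 control reads, beside 6.30 for Dusp1. Kdm3a was 4.12-fold higher (3.84 to 4.41), beside 6.37 for Dusp5, while Hspa1b at 5.33 was close to Dusp6 at 5.02.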

How the data were processed

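RNA of 3 libraries, 1 each of hypoxia with T3, hypoxia and control, was measured by strand-specific sequencing (KAPA kit). The authors deposited a table of CPM for 24054 genes, whose file name calls it TMM-normalised (trimmed mean of M-values). RSEM 1.2.15, Bowtie2 2.1.0, bcl2fastq 2.17 and the build mm10 appear in the submitters' processing notes without their roles. The authors also deposited 2 tables of 13152 genes with a signed fold score (minus the inverse below 1) and a p-value and false discovery rate, per the file headers; their 4 columns of library values were not used.

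All CPM values (100%) were whole multiples, within 0.01, of 1 read, so whole reads were recovered. No count test was run on them, since with 1 library a group no spread between replicates can be estimated. A gene was compared where its mean reached 1 CPM, log2 ratios used CPM + 1, and 2-fold was the rule for a call. Printed folds are ratios of CPM without that addition, with exact 95% Clopper-Pearson intervals. The steps were tested on simulated data.

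The members and lists were chosen with earlier results of these data known. Named list genes are up to 4 per list with the largest ratios at 2-fold or more in hypoxia over control. Dusp9, Dusp22, Map3k14, Epha4, Etv1, Etv5, Ccnd1, Spry2 and AC137853.2 fall outside that rule and were named after their values were seen. Positions and promoters are from RefSeq (GRCm38.p6, the assembly of mm10), transcript lengths, exons and overlaps from GENCODE M21. Of 31-base words of a Dusp transcript, at most 4.45% (Dusp14) occur in another gene. Of the compared genes 99.6% had a RefSeq span. Python 3.11.15, numpy 2.4.6, pandas 2.3.3, scipy 1.17.1, matplotlib 3.10.9, R 4.3.3 and edgeR 4.0.16 (TMM factors) were used.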

Additional observations from a re-analysis of the deposited data

How the results depend on the processing

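The counts of Dusp genes at least 2-fold apart were 4 in hypoxia over control, 4 in hypoxia with T3 over control and 0 in hypoxia with T3 over hypoxia under pseudocounts of 0.5 and 5 CPM, no filter on low values, a mean of at least 5 CPM (which leaves 8 of the 10 genes), libraries scaled to equal sums and recomputed TMM factors. At a fold of 1.5 they were 4, 5 and 1. Over all genes the counts were 876, 844 and 24, against 441, 436 and 9 with 5 CPM added and 2828, 2771 and 126 at a fold of 1.5. With a mean of at least 5 CPM the last count was 14. These follow from the construction of the alternatives. Of 174 ratios of single Dusp genes under alternatives, 18 moved by more than their counting interval, 10 of them with equal sums, and none of those at 2-fold changed sign. Dusp5 in hypoxia with T3 over hypoxia, at 0.00, came to −0.01 with equal sums and with recomputed TMM factors. Of 147 counts of pathway lists, 124 stayed within 1.5 times, and counts of 0 that stayed at 0 are among these. In hypoxia with T3 over hypoxia all 7 lists began at a count of 0. No paired analysis was possible because each group has 1 library. Depth limits Dusp5 most, with 26 control reads, and also Dusp2, Dusp10, Dusp14 and Dusp16, with 60 to 231 reads a library.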
